A study of Mus musculus with 3 samples.

Results

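The T-box genes encode transcription factors that share a DNA-binding domain, and 8 of them were examined here: Tbx1, Tbx2, Tbx3, Tbx4, Tbx5, Tbx15, Tbx18 and Tbx20. A Foxf2-FLAG peak was counted for one of these genes when the nearest protein-coding transcription start site (TSS) to the peak's midpoint belonged to it, with GENCODE M21 basic transcripts in mm10. By this rule 43 of 25704 peaks belonged to 5 of the 8 genes, and Tbx1, Tbx15 and Tbx20 had none. Of all 21938 protein-coding genes, 37.3% had at least 1 peak, without regard to the stretch over which a gene has the nearest TSS. Among genes with a stretch of like length the share was 34.4% for Tbx1. For each of the others it was 72.7% or 81.5%. In the 8 genes the share was 62.5%, so it was not high for genes with such long stretches.

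Tongues were dissected at E12.5 from mouse embryos homozygous for an endogenous Foxf2 that carries a 3xFLAG tag, introduced by CRISPR/Cas9 editing. Foxf2 is a forkhead transcription factor of the mesenchyme. Chromatin from 2 libraries was precipitated with anti-FLAG and 1 library was unprecipitated input; all 3 carry the tag, and FLAG ChIP from untagged tissue was not analysed here. The labels give 75 tongues without saying whether per library. The values analysed were 1 list of peaks, each scored by the authors' caller (HOMER) and given a focus ratio, with no value per library. Differences between libraries could therefore not be measured, the depth is unknown, and every share below is a description of this list without a test. A peak list holds no expression values, so the tissue was not checked against cell type markers, and whether the T-box genes were expressed in these tongues was not measured. The nearest TSS is a rule of position and does not show which gene a peak acts on.

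T-box factors bind DNA through the domain that names them, and some activate and others mainly repress transcription. Tbx2 and Tbx3 are known as repressors, Tbx4 and Tbx5 as regulators of limb and lung or heart, Tbx15 and Tbx18 as regulators of mesenchyme and its skeletal and smooth muscle derivatives, Tbx20 of the heart, and Tbx1 of the pharyngeal arches and their muscles. Tbx2 and Tbx4 lie close together on chromosome 11, with the protein-coding gene record Gm11444 between them, and Tbx3 and Tbx5 are neighbours on chromosome 5. Forkhead proteins recognise a short core, searched here on both strands as 4 words. The strict word was GTAAACA, and the variants counted with it were the word GTAAATA, the word ATAAACA and the word ATAAATA.

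The highest-scored peak of each gene that had one is printed first, since these sequences show what the caller placed at the summit of each locus. The second peak of Tbx18 is added because it held 3 cores. All are from GRCm38, plus strand, 5′ to 3′, and capitals mark a forkhead core. A core on the minus strand reads as its reverse complement, for example TGTTTAC for GTAAACA.
Tbx18, highest, chr9:87511772-87511984: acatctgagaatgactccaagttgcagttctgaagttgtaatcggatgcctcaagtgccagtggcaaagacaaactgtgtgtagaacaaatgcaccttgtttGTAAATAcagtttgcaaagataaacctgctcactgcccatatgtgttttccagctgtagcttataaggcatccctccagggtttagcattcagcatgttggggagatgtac
Tbx18, second, chr9:87505499-87505711: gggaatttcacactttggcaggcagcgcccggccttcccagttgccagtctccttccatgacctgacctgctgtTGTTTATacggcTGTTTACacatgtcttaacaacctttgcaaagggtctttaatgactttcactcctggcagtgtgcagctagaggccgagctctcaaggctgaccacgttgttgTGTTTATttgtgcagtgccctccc
Tbx3, highest, chr5:119570249-119570461: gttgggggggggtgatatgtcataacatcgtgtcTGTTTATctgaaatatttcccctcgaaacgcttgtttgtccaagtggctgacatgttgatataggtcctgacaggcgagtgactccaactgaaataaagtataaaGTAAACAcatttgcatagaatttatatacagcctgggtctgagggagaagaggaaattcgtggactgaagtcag
Tbx2, highest, chr11:85613061-85613273: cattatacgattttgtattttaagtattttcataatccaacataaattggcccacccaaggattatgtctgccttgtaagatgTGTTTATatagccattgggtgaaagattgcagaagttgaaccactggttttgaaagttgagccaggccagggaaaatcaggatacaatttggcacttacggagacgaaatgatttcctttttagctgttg
Tbx5, highest, chr5:119922270-119922482: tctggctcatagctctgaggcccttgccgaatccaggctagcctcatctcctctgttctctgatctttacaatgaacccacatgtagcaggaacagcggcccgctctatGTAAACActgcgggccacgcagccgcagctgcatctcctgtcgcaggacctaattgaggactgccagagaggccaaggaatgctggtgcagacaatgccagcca
Tbx4, highest, chr11:85937948-85938160: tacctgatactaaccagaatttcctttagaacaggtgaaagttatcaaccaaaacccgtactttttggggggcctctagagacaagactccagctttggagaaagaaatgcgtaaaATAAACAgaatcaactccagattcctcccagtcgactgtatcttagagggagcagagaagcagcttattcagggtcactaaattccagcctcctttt
The highest-scored interval of each of these genes held at least 1 core, beside 72.5% of all peaks in the 200 bp around the midpoint. The second Tbx18 interval was chosen for its cores and adds nothing to that count. The Tbx5 and Tbx18 (highest) cores lay 6 and 1 bp from the peak midpoint, and the nearer Tbx3 core lay 36 bp from it.

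Around the start sites themselves the peaks were few. Peaks of Tbx2, Tbx4 and Tbx5 nearest to a TSS lay in introns of these genes and each held 1 core, which is printed with 11 bases on either side.
Tbx2 intron, chr11:85836187-85836215: tggagtggagaTGTTTACttagcaattag
Tbx4 intron, chr11:85888902-85888930: tgcacttggctTGTTTACtttggaggccc
Tbx5 intron, chr5:119839728-119839756: ggcggtgggtcTGTTTATatcagacatct
The Tbx2 and Tbx4 matches both read GTAAACA on the minus strand, and the Tbx5 match reads ATAAACA there. The Tbx3 and Tbx18 peaks nearest to a TSS lay in their promoters and held none of the 4 words.

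**Figure D1:**
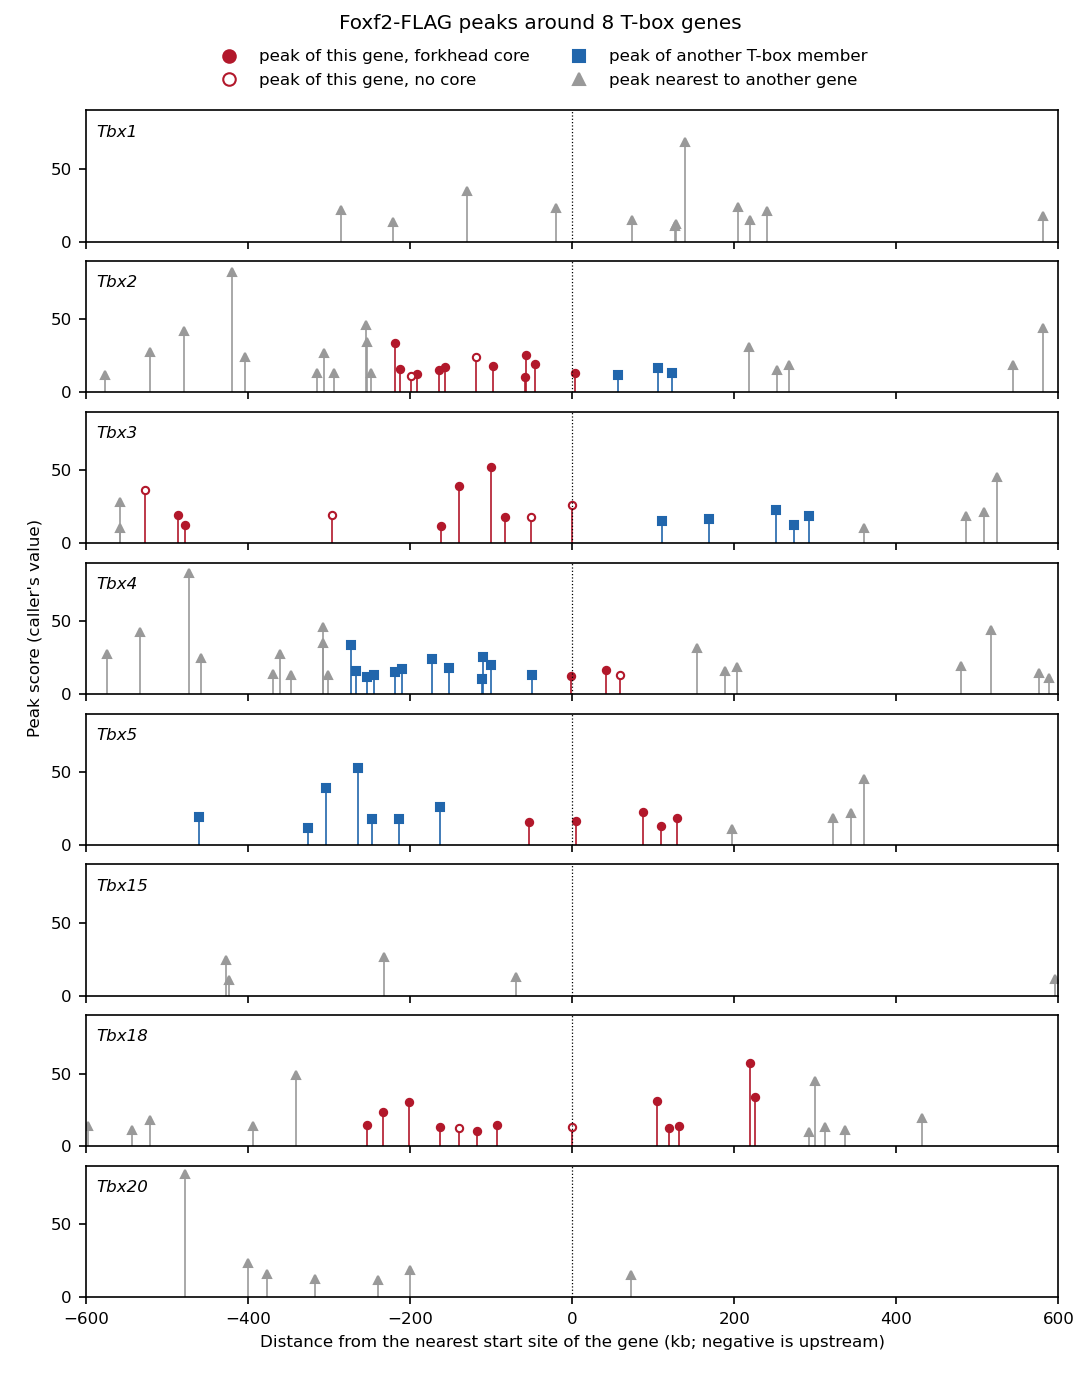
Peaks within 600 kb of each T-box gene, 1 panel per gene. The horizontal axis is the distance in kb from the nearest start site of that gene (negative is upstream) and the height is the caller's score; red circles are peaks of the gene (filled with a forkhead core, open without), blue squares are peaks of another of the 8 genes and grey triangles are peaks nearest to other genes. Tbx2 has a run of 11 peaks upstream and Tbx3 has 10, Tbx18 has peaks on both sides, and Tbx1, Tbx15 and Tbx20 have grey triangles only.

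Tbx18, which encodes a factor of somite, epicardial and ureter mesenchyme, had the most peaks of the 8 genes when all peaks were counted, with 13. Its territory, meaning the stretch for which no other protein-coding TSS is closer, was 535.8 kb, which gives 2.43 peaks per 100 kb against 0.943 over the territories of all genes. The gene is annotated on chromosome 9 from 87702800 to 87731260, minus strand. It had 8 peaks upstream, as far as 254 kb, and 5 downstream, as far as 225.7 kb, and 12 of the 13 were intergenic. Scores ran from 10.3 to 57.5 with a median of 14.4, below the list median of 16.2. At or above the list median lay 5 of 13, fewer than at Tbx3 (8) or Tbx2 (6). Within 100 kb of a start site Tbx18 had 2 peaks, the fewest of the genes with peaks, and Tbx2 had 5.

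The peak with the highest score of all 43 (57.5, rank 977 of 25707) was the Tbx18 peak 219.4 kb downstream, and its focus ratio of 0.928 was also the highest of the 43. The focus ratio describes how closely the reads gather at the peak, and its median over the list was 0.783. A neighbour 6.27 kb away, 225.7 kb downstream, scored 34.1 and held 3 cores. On the upstream side the highest was 30.8, at 202.3 kb. The Tbx18 promoter peak, 13 bp upstream of the TSS (chr9:87731167-87731379), scored 13.1 and ranked 17545. Promoter here means the stretch from 1000 bp before a TSS to 100 bp after it. Across the locus 11 of 13 peaks held a core, and the promoter peak was 1 of the 2 without.

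Tbx2 and Tbx4 had 15 peaks between them, 12 at Tbx2 and 3 at Tbx4. Tbx2 (chromosome 11, 85832551 to 85841948) had the highest density of the 8 genes, 4.83 peaks per 100 kb in 248.6 kb. Of these peaks, 11 lay upstream, from 46.01 to 219.4 kb, and all 11 were inside Bcas3, the neighbouring protein-coding gene transcribed toward Tbx2. Their midpoints fell in introns for 10, and for 1 at the start of the antisense RNA Bcas3os2 (25.5, chr11:85775650-85775862). Scores of the 12 ran from 10.6 to 33.6 with a median of 16.65, so this was a dense run of peaks near the list median with none in the highest-scored decile (38.6 and above). The 12 were a median of 13.5 kb from the next, and the closest pair was 1.47 kb apart.

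Bcas3 as a whole, 473 kb long, held 19 peaks, of which 11 were nearest to the Tbx2 TSS and 8 to that of Bcas3. The highest of the 19 scored 82.7 and was nearest to Bcas3. The first peak beyond the border between the territories scored 13.3, 248 kb from the Tbx2 TSS, and the last inside it scored 33.6. The run of peaks thus crossed the line that assigns them to Tbx2. The downstream side of the Tbx2 territory was 8.89 kb, against 240 kb upstream, and held 1 peak, 3.644 kb from the TSS in a Tbx2 intron with a score of 13.1. Per 100 kb this was 11.2 peaks downstream and 4.59 upstream.

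Tbx4 (chromosome 11, 85886422 to 85916097), best known from the hindlimb and lung, had 3 peaks with scores of 12.1, 16.4 and 13.2. The first lay in a Tbx4 intron 1.16 kb before the nearest of 3 start sites, and the others lay 41.29 and 59.08 kb downstream in intergenic sequence. A higher-scored peak of 31.4 fell 2.2 kb beyond the border with Brip1, which encodes a DNA repair helicase, and so was not counted for Tbx4.

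Tbx3 and Tbx5 also had 15 peaks, 10 and 5. The 10 peaks of Tbx3 (chromosome 5, 119670669 to 119684724) all lay upstream of the nearest start site, from the promoter to 527.1 kb, in a territory of 637.1 kb (1.57 per 100 kb). The upstream side made up 555 kb of that territory. Their scores ran from 11.5 to 52.5 with a median of 19.45, and 8 of 10 were at or above the list median. The highest, 52.5 (rank 1240), lay 100.3 kb upstream in a noncoding exon of the antisense RNA Tbx3os1. The second, 39 (rank 2517), lay in intergenic sequence 140.4 kb upstream. These 2 and the Tbx18 peak of 57.5 were the 3 of 43 in the highest-scored decile, 6.98% (exact Clopper-Pearson 95% interval 1.46 to 19.1) beside 10.1% of the whole list.

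Tbx3 had 4 of its 10 peaks without a forkhead core, the most of the 5 genes. They scored 36.8, 19.4, 18.0 and 25.9, each above the list median. The first of these was the most remote peak of Tbx3, 527.1 kb upstream, and the last was the promoter peak, 60 bp upstream of 1 of 3 start sites (chr5:119670696-119670908, GC content 60.5%). A peak of Med13l, a Mediator subunit gene, followed 3.03 kb beyond the far border and scored 10.5.

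Tbx5 (chromosome 5, 119832668 to 119885219), a heart and forelimb factor, had 5 peaks in 222.7 kb, 2.24 per 100 kb, with scores from 12.8 to 22.8. All 5 held a core, and 4 held GTAAACA. One lay in a Tbx5 intron 5.058 kb downstream, 3 lay from 87.71 to 128.9 kb downstream, and 1 lay 53.16 kb upstream, between Tbx3 and Tbx5.

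The stretch between the start sites of Tbx2 and Tbx4 was 53.9 kb, of which 26.9 kb lay in their own territories and the rest in that of Gm11444. That is 6.27% of the pair's joint territory, and it held 1 of the 15 peaks, 6.67%. Between Tbx3 and Tbx5, 164 kb or 19% of the joint territory also held 1 of 15 peaks. In both pairs the gene on the left, Tbx2 or Tbx3, had more peaks than the other and the highest-scored one of the pair, upstream of its start site. The left gene also had the larger territory (248.6 against 180.6 kb, and 637.1 against 222.7 kb). Per 100 kb, Tbx2 had more peaks than Tbx4 (4.83 against 1.66) but Tbx3 had fewer than Tbx5 (1.57 against 2.24).

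Tbx1, Tbx15 and Tbx20 had no peak under the rule. Tbx1 (chromosome 16, 18580979 to 18590671), whose loss is linked to DiGeorge syndrome, has close neighbours and a territory of 63.22 kb. Of the 2194 genes in the same decile of territory length, 34.4% had a peak. Within 300 kb of a Tbx1 TSS there were 11 peaks, all nearest to other genes. The closest lay 20.2 kb upstream of Tbx1 with a score of 23 (chr16:18610775-18610987), 4.73 kb beyond the border with Gp1bb, and held no core. The highest, 68.2, was in an intron of Txnrd2, 139 kb downstream of Tbx1.

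Tbx15 (chromosome 3, 99240381 to 99354259) differed from Tbx1 in having a wide territory of 372.2 kb. In its territory decile 81.5% of genes had a peak, with a median of 4. Just 2 peaks lay within 300 kb of its TSS, 70.1 and 232 kb upstream with scores of 12.8 and 26.7, both nearest to Wars2, which encodes a mitochondrial tRNA synthetase. On the other side the next peak was 596 kb from the TSS, nearest to Spag17. Tbx20 (chromosome 9, 24718138 to 24774303) had a territory of 196.6 kb, in a decile where 72.7% of genes had a peak. The closest peak scored 15 and lay 72.8 kb downstream of the TSS, nearest to Dpy19l2, and none of the 3 peaks within 300 kb held a core.

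**Figure D2:**
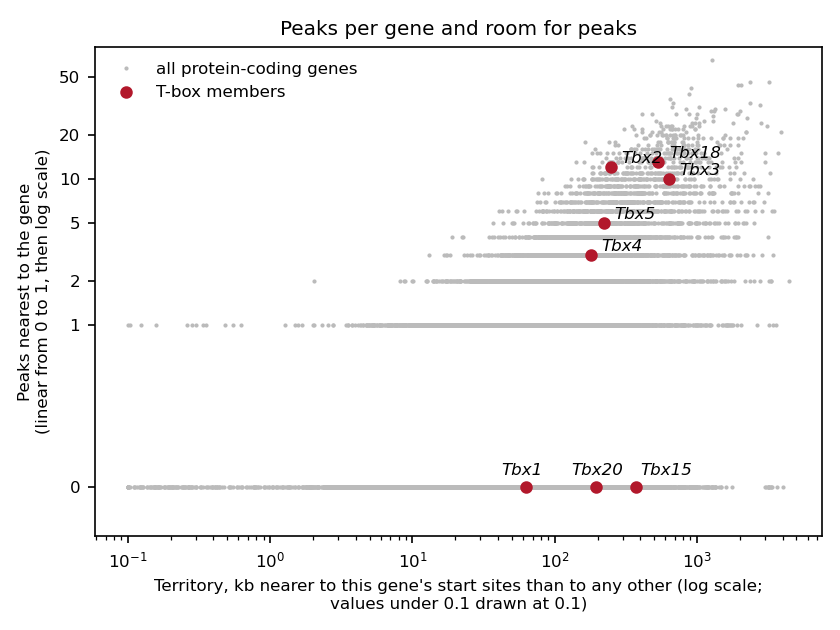
Number of peaks nearest to each gene (vertical axis) against the gene's territory in kb (horizontal axis, log scale), with grey points for all protein-coding genes and red points for the 8 T-box genes. Tbx2, with 12 peaks in 248.6 kb, lies near the upper edge of genes with such territories, whereas Tbx15 has 0 in 372.2 kb.

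Set beside genes of like territory, the 8 genes spread over the whole range. Tbx2 had 12 peaks where the median of its decile was 2, and 1.37% of the 2194 genes in the decile had as many. For Tbx18 and Tbx3, in the highest decile with a median of 4, these shares were 12.3% and 19.1%. For Tbx5 and Tbx4 they were 20.1% and 39.4%. At least 10 peaks were found for 3 of the 8 genes, Tbx2, Tbx3 and Tbx18, beside 2.26% of all genes, without regard to territory.

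Scores of the 43 peaks ran from 10.3 to 57.5 with a median of 16.6, against 10.1 to 243.9 with a median of 16.2 in the list, and 23 of 43 (53.5%, interval 37.7 to 68.8) lay at or above the list median, beside 50.1% of all peaks. The median focus ratio was 0.779, against 0.783.

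**Figure D3:**
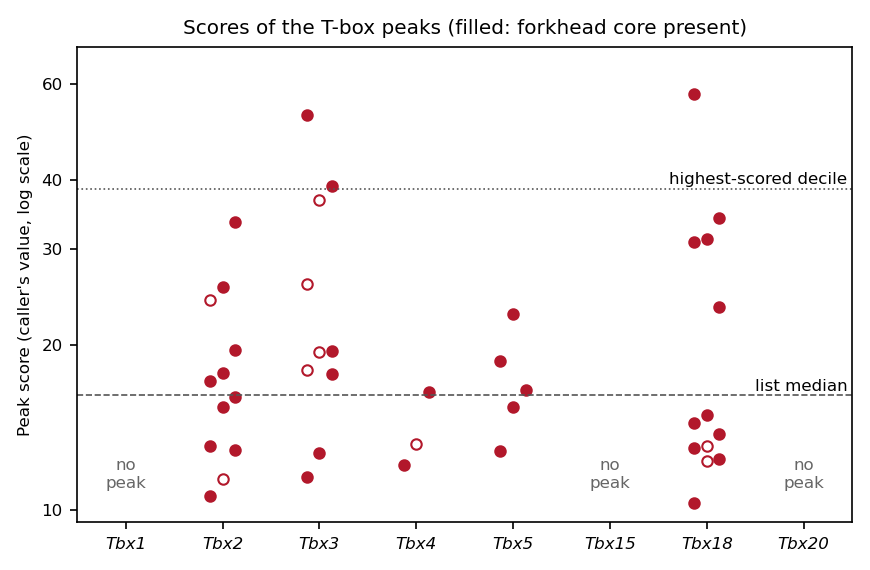
Caller's score (vertical axis, log scale) of each of the 43 peaks by gene, filled where a forkhead core was present; the dashed and dotted lines mark the list median of 16.2 and the start of the highest-scored decile at 38.6. The 3 points above the dotted line belong to Tbx3 and Tbx18, all Tbx5 points are filled, and 4 of the 10 Tbx3 points are open.

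Most of the 43 peaks were far from a start site. They lay a median of 119 kb from it, against 51.3 kb in the list, and 27 of 43 (62.8%, interval 46.7 to 77) were beyond 100 kb, against 33.8% of all peaks. Within 10 kb there were 5 (11.6%, against 20.9% of the list), 1 for each gene with peaks. Distance is bounded by territory, which was 180.6 to 637.1 kb for these genes, and genes of like territory were not compared for it. In the gene lists described below, median distances were 162 kb (Iroquois), 100 kb (nuclear factor I) and 94.1 kb (cofactors and partners). They were 77.7 kb for T-box targets and 14.3 kb for other T-box genes. Upstream peaks made up 31 of 43 (72.1%, interval 56.3 to 84.7), against 44.2% of the list. In the gene lists the shares were 70.6% (cofactors and partners), 44% (Iroquois), 16.7% (other T-box genes), 13% (nuclear factor I) and 9.09% (T-box targets). Of the territories of the 8 genes, 58.2% lay upstream of the start sites. This includes the genes without a peak, Tbx1 (15.5 kb upstream against 44), Tbx15 (56.3 against 316 kb) and Tbx20 (158 against 39 kb). It is therefore not the share for the genes with peaks. Among those, the upstream side was the longer at Tbx2 (240 against 8.89 kb), Tbx3 (555 against 81.8 kb) and Tbx18 (298 against 238 kb). It was the shorter at Tbx4 (18 against 152 kb) and Tbx5 (81.8 against 141 kb). The exact intervals cover the counting of peaks only, and peaks of 1 locus are not independent.

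By place, 24 of 43 midpoints (55.8%, interval 39.9 to 70.9) were intergenic, against 41.8% of the list, 15 were in introns (34.9%, against 46.1%), 3 at a promoter (8.52% of the list were at one) and 1 in a noncoding exon. Own promoters held 2 of the 43 peaks (4.65%, interval 0.568 to 15.8), those of Tbx3 and Tbx18, and 6.02% of all peaks lay in a promoter of their nearest gene. No peak of the 43 was in a coding exon. In the list 147 of 25704 peaks were in one, too few for a count of 0 among 43 to set the genes apart. Exons outside coding sequence held 772 peaks of the list.

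Of the 43 peaks, 34 held a forkhead core in the 200 bp around the midpoint, 79.1% (interval 64 to 90), beside 72.5% of all peaks. Windows of the same width 2000 bp to the left and right of the 43 held it in 5 and 3. In the whole list these flanks held it in 18.4% and 18.3%. By gene it was present in 10 of 12 peaks at Tbx2, 6 of 10 at Tbx3, 2 of 3 at Tbx4, 5 of 5 at Tbx5 and 11 of 13 at Tbx18. Where present, the nearest core lay a median of 13 bp from the midpoint (11 bp in the list), and in 23 of the 34 it lay within 20 bp.

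Among the 4 words, the T-box peaks held GTAAACA most often. It was in 19 of 43, 44.2% (interval 29.1 to 60.1), beside 27.4% of all peaks. ATAAACA was in 30.2%, against 38.1% of the list, ATAAATA in 4.65% against 13.5% and GTAAATA in 14% against 9.79%. The order of the first 2 words was thus the reverse of that in the list. The 19 peaks were 5 at Tbx2, 5 at Tbx3, 1 at Tbx4, 4 at Tbx5 and 4 at Tbx18, so that this word was present at every gene with peaks.

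Words of other factor families were searched in the same windows on both strands. The T-box word AGGTGTGA was in 1 of 43 peaks, the Tbx18 peak 93.62 kb upstream (score 14.4, chr9:87824776-87824988), and in 0.482% of all peaks. Each of the E-box words CATCTG and CAGCTG, bound by basic helix-loop-helix factors, was in 10 of 43 (23.3%), beside 28% and 18.7% of the list. The TEAD word GGAATG was in 5 (11.6%), beside 15.1%. The GLI word GACCACCCA was in 0 of 43, which allows a share of up to 6.98% (3 counts of 43), and 0.319% of all peaks held it. A word that is present or absent here describes the letters of the window and not the binding of a factor.

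**Figure D4:**
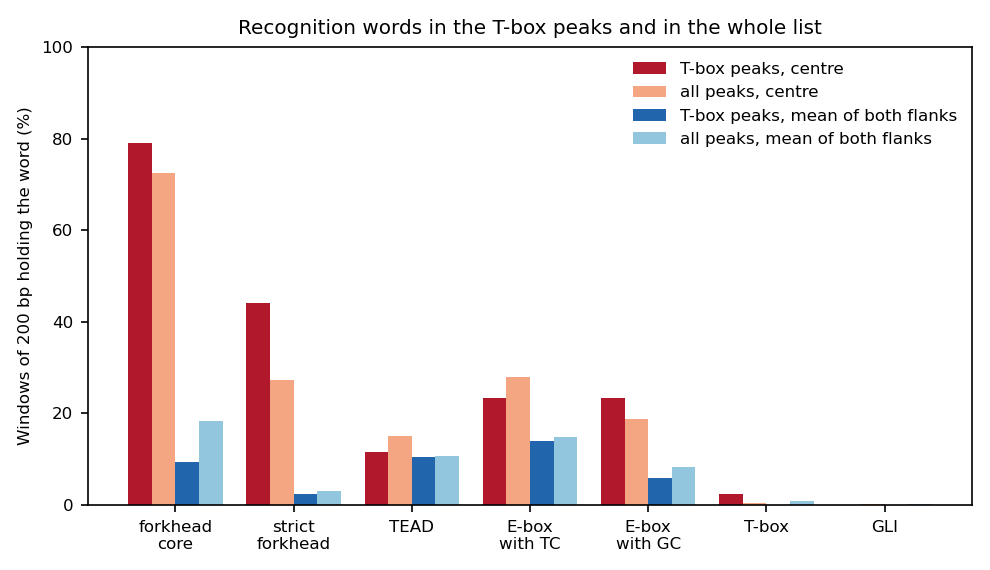
Share of 200 bp windows that hold each word (vertical axis, percent) at the centres of the 43 T-box peaks (red) and of all peaks (light red), and in windows 2000 bp to either side (blue and light blue, mean of both sides). The forkhead core is in 79.1% (interval 64 to 90) and 72.5% of the centres. The strict word GTAAACA is in 44.2% (interval 29.1 to 60.1) and 27.4%, the widest gap in percentage points among these words. Peaks of the same locus are not independent, so these intervals do not test either gap.

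Proximal promoter sequences were at hand for some of the genes only. RefSeq promoter sequences (GRCm38.p6, 300 bases around each start) were matched for Tbx1, Tbx4, Tbx18 and Tbx20, 5 sequences in all. None of the 5 held a core, and 15% of 32851 promoters in that set did. With a share of 15%, 5 sequences are too few for a count of 0 to set the genes apart. Tbx2, Tbx3, Tbx5 and Tbx15 were not analysed in this way.

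Other genes of the family had fewer peaks. Of 9 further T-box genes, 4 had a peak (44.4%, beside 37.3% of all genes): Tbx22 and Eomes with 2 each, and Tbx10 and Tbx19 with 1 each. Their 6 peaks scored at most 18.1. Tbx22, whose mutation in humans causes cleft palate with tethered tongue, had its closest peak 44.9 kb from a TSS. Tbx6, Tbx21, T (Brachyury), Tbr1 and Mga had none. The 9 genes had 0.664 peaks per 100 kb and the 8 genes 1.75, beside 0.943 for all genes.

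Cofactors and partners of T-box proteins had peaks at 7 of 10 genes (70%), beside 37.3% of all genes without regard to territory. Tle3, a corepressor of the Groucho family, and Hand2, a basic helix-loop-helix factor of jaw and heart, had 11 each, with highest scores of 79 and 48.9. Isl1 had 5 (highest 15.4). Ripply2, which encodes a corepressor that binds T-box proteins, had 4 peaks in 70.78 kb, all with a core and the highest at 47.2. Nkx2-5, Gata4 and Gata6 had 1 each, and Ripply1, Ripply3 and Gata5 had none. Tle3, Hand2, Gata6 and Isl1 had territories of 452.4 kb or more, and 81.5% of genes in the highest territory decile had a peak. Of 6 genes known as T-box targets, Fgf10, a growth factor of limb and lung budding, had 10 peaks (highest 38.9) and Cdkn2a, a cell cycle inhibitor, had 1 at 11.1. Cdkn1a, Nppa, Gja5 and Fgf8 had none, which left 33.3% of the target genes with a peak.

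Families of developmental transcription factors from the same list are set beside the T-box genes here. The 6 Iroquois homeobox genes, which also lie in clusters, all had peaks, beside 37.3% of all genes without regard to territory. Their territories were 235 to 893.5 kb, in deciles where 72.7% or 81.5% of genes had a peak. They had 50 peaks in all or 1.62 per 100 kb, and the 4 nuclear factor I genes had 46, or 3.92 per 100 kb. Median scores were 16.2 and 15.9, beside 16.6 at the T-box genes. A forkhead core was in 88% and 73.9% of these peaks, and GTAAACA in 22% and 32.6%, against 44.2% of the T-box peaks. In the smaller lists above, GTAAACA was in 44.1% of the 34 peaks of cofactors and partners, 45.5% of the 11 of targets and 66.7% of the 6 of other T-box genes. Iroquois peaks lay a median of 162 kb from a start site. These differences between families were not tested.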

How the data were processed

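Anti-FLAG ChIP-seq was made from E12.5 tongues as 2 ChIP libraries and 1 input. Per the submitters' processing notes and the design text in the labels, reads were aligned to mm10 with Bowtie2 (2.4.1), handled with SAMtools (1.7.1), and peaks were called with HOMER against the input. The settings of the caller and any pooling: not given in the sources used here. Scores are the authors' deposited values and have no stated scale. The focus ratio, a fraction between 0 and 1, is deposited by the authors under a header that also names a region size. Both were used only to describe and rank peaks. Depth is unknown.

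The 3 peaks of an unplaced contig were dropped. Coordinates were used as deposited with the GRCm38 sequence. The nearest TSS came from GENCODE M21 basic transcripts of protein-coding genes, which need not begin at the start of the gene record. Words were matched on both strands in 200 bp around the midpoint. No test was run, since no value belongs to a library. Intervals are exact (Clopper-Pearson, 95%), and the limit for a count of 0 is 3 counts of the total. The search for nearest start sites and words was tested on simulated data. Genes and lists were chosen with earlier results of these data known. The named genes are the 8 genes, 9 other T-box genes, 10 partners, 6 targets and host genes of peaks, and per gene the highest-scored peak and that nearest to a TSS. The Iroquois and nuclear factor I genes, Med13l, Brip1 and other neighbours were added later. Alternatives covered the score, start sites, distance, promoter width, word and window. Python 3.11.15, numpy 2.4.6, pandas 2.3.3, pysam 0.24.0 and matplotlib 3.10.9 were used.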

Additional observations from a re-analysis of the deposited data

How the results depend on the processing

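The counts depended on the score, on how far a peak may lie from a start site and on which start sites compete for it. When start sites of every gene type competed, including long noncoding RNAs, pseudogenes and small RNAs, 5 of the 43 peaks stayed nearest to a T-box gene, 1 at each of the 5 genes, and 3 of them held a core. Within 100 kb there were 16 peaks, 12 with a core, and within 10 kb 5 peaks, 3 with a core. Counting every peak within 100 kb of a start site, whichever gene was nearer, gave 20. Peaks at or above the list median numbered 23, 18 with a core and 1 at a promoter. The highest-scored decile held 3 peaks at 2 genes, 3 with a core and 0 at a promoter. With GTAAACA alone 19 peaks held the word. Other settings kept these 4 counts within 1.5 times. Tbx1, Tbx15 and Tbx20 stayed at 0 peaks by the nearest start site. For them only the start of the gene record could have added a peak, and it did not. The other settings remove peaks or add competing start sites, so they say nothing about that absence. Of 48 counts for single genes, 23 moved beyond that limit, all of them at the 5 genes with peaks, and the order of the genes changed. Those that did not move include every count of Tbx1, Tbx15 and Tbx20, which were 0 from the start. Tbx3 had the most peaks at or above the list median (8), and Tbx2 the most within 100 kb (5). Leaving out a library was not possible, as no value belongs to one. No paired analysis was possible because the list has no columns per sample and no test was made.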
